A study of Mus musculus with 15 samples.

Results

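The genes described here are the 10 mouse genes Il6, Lif, Osm, Csf1, Csf2, Csf3, Csf2ra, Csf2rb, Csf2rb2 and Csf1r, which encode ligands of the interleukin-6 (IL-6) family, the colony-stimulating factors (CSFs) and CSF receptors. They were picked by name, and are 10 of the 50554 genes in each count table. All 10 were among the 20865 genes that passed the low-count filter.

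The 15 RNA libraries came from dendritic cells that had been grown from bone marrow, cells that present antigen to T cells. All donor mice carried CreERT2, a Cre recombinase switched on by tamoxifen, and a floxed allele of Mysm1, a histone H2A deubiquitinase gene. After tamoxifen, Δ/+ cells kept a wild-type Mysm1 allele and Δ/DN cells an allele for a catalytically inactive protein. Marrow was taken more than 12 weeks later and grown for 9 days with 20 ng/mL GM-CSF, the protein encoded by Csf2, so every group had received this cytokine. The cells then spent 18 h either unstimulated (US) or with 10 ng/mL lipopolysaccharide (LPS), a bacterial outer membrane component. Whether GM-CSF was also present in those hours, which promoter drove CreERT2 and the age of the mice are not given in the sources used here. The Δ/+ genotype had 4 US and 3 LPS libraries and the Δ/DN genotype 4 of each, numbered by culture within a genotype, so that libraries of the same genotype and number came from the same named culture (7 of the 8 cultures had both treatments). The labels do not say that each culture was a separate mouse, so the p-values do not measure the spread between mice. The main test had no term for culture. Its p-values rest on the spread between libraries of a group and leave out the pairing of US and LPS libraries.

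The text of the series and the fields of the samples give the lettered mouse groups to opposite genotypes. Directions between genotypes below are those on the samples, and they would turn round under the other reading. Total Mysm1 level does not check the labels, since both genotypes keep a transcribed allele: it ran from 46.3 to 54.1 reads per 1e6 counted reads (CPM) in Δ/+ US, 28.1 to 48.9 in Δ/DN US, 41.3 to 44.6 in Δ/+ LPS and 30.8 to 40.0 in Δ/DN LPS. Libraries held 37256651 to 104041282 counted reads. A set of 16 genes known to answer LPS rose in both genotypes, 16 of 16 in each, where 47.7% and 48.2% of all genes tested were called in either direction. Their median log2 difference was 5.97 in Δ/+ and 5.40 in Δ/DN, beside -0.08 and -0.09 over all genes tested. Without LPS their summed level was 2013 CPM in Δ/DN culture 3 and 607 to 694 CPM in the other 3 Δ/DN cultures, and 526 CPM in Δ/+ culture 4 and 1064 to 1204 CPM in the other 3 Δ/+ cultures. These 2 libraries stand apart from their groups, and the part of this in the genotype differences without LPS was not tested. The names of the libraries carry a prefix of 2 or 3, called the library set here, whose meaning is not given. Set 3 held Δ/+ US 4 and both libraries of Δ/DN cultures 3 and 4. Since Δ/+ US 4 was the only Δ/+ library of set 3, fits without it had both genotypes only in set 2. A call lost in such a fit may reflect this design as well as the value of that library. Of the dendritic cell markers, Itgax averaged 936 and 976 CPM in Δ/+ US and Δ/DN US and Cd74 3366 and 3911 CPM, while Flt3 averaged 1.38 and 1.52 CPM. Of the 14 dendritic cell markers, Dpp4, Ciita, Xcr1 and Kmo were called higher in Δ/DN without LPS and Dpp4 and Ciita with LPS, none was called lower, and the median log2 differences were 0.42 and 0.29. Over all genes tested 10.5% were called without LPS and 8.60% with LPS, and the medians were 0.01 and 0.01. The part of these markers in the genotype differences below was not tested.

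IL-6, leukemia inhibitory factor (Lif) and oncostatin M (Osm) signal through receptors that share the gp130 chain, encoded by Il6st, and the kinases and transcription factors of the JAK-STAT pathway. M-CSF (Csf1) acts through the tyrosine kinase receptor CSF1R, which supports macrophages, and G-CSF (Csf3) drives neutrophil production. GM-CSF binds an alpha chain (Csf2ra) that pairs with a beta chain (Csf2rb) shared with the IL-3 and IL-5 receptors, while the mouse gene Csf2rb2 encodes a related beta chain that serves IL-3 only. Il6, Lif and the CSF genes are known targets of NF-kB, AP-1 and C/EBP transcription factors in LPS-treated myeloid cells.

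The 250 bases before the start site of Il6, Lif and Csf1 are printed 5′ to 3′, from RefSeq promoter windows of GRCm38.p6, because these 3 windows, out of those at hand, held a match to a motif searched for. Capitals mark matches, on either strand, to the kB consensus of NF-kB, to the AP-1 motif TGANTCA or to the C/EBP motif ATTGCNNAA. RefSeq windows matched 6 of the 10 genes, and positions count back from the start site. The Il6 stretch lies at chr5:30012864-30013113 on the plus strand, that of Lif at chr11:4257318-4257567 on the plus strand and that of Csf1 at chr3:107760470-107760719 on the minus strand.
Il6: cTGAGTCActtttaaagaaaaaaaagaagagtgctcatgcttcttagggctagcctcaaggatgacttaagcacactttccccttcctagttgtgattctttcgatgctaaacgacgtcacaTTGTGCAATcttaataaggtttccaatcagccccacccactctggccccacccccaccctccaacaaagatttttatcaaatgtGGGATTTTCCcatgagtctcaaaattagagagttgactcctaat
Lif: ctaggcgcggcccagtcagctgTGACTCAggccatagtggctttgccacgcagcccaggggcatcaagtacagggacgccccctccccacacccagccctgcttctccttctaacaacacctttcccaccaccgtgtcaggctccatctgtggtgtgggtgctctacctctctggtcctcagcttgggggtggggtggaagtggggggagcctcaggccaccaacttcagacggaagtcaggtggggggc
Csf1: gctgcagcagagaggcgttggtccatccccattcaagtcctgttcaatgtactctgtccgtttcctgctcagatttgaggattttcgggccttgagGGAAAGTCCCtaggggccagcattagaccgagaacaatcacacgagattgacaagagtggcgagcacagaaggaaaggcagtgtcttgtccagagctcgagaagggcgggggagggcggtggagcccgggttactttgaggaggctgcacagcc
The Il6 stretch held an AP-1 match at -249 to -243, a C/EBP match on the opposite strand at -128 to -120 and a kB match at -44 to -35. Lif had an AP-1 match at -228 to -222, and Csf1 a kB match on the opposite strand at -154 to -145. No match overlapped another. The windows of Csf2, Csf2ra and Csf2rb2 held none of these letters, nor GAGATTCC, the core of a conserved cytokine element. The Csf2 window is built on a start site 232 bases upstream of the GENCODE M21 start. It does not reach the bases just before that start, so the search cannot show that Csf2 lacks these motifs there. Among 32851 windows of the same kind (these bases plus 50 after the start), 4.51% had a kB match, 7.81% an AP-1 match, 2.18% a C/EBP match and 0.904% the cytokine element core. A match is only a run of letters and not a measured binding site.

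With LPS, the 6 ligand genes rose in both genotypes, and of the 4 receptor genes Csf1r fell in both. A gene is called here when edgeR's quasi-likelihood test, adjusted by Benjamini-Hochberg over the 20865 genes, gave an adjusted p under 0.05. By this rule 7 of the 10 genes were called in Δ/+, where 47.7% of all genes tested were called, and 7 of 10 in Δ/DN, where 48.2% were. The median log2 difference over the 10 genes was 2.34 in Δ/+ and 2.19 in Δ/DN, beside -0.08 and -0.09 over all genes tested. The calls of these 7 genes held in every alternative fit that gave them a value, 19 in Δ/+ and 20 in Δ/DN. In bulk RNA, a change in the number of cells that make a transcript and a change per cell cannot be told apart.

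Il6 encodes the founding cytokine of its family. Its level without LPS was 4.32, 4.74, 2.65 and 2.32 CPM in Δ/+ cultures 1 to 4, and 0.765, 1.97, 3.30 and 0.797 CPM in Δ/DN cultures 1 to 4. With LPS it was 2583, 2299 and 3153 CPM in Δ/+ cultures 1 to 3, and 2298, 1361, 2002 and 1109 CPM in Δ/DN. The US and LPS libraries were thus far apart in each genotype. The LPS difference was 9.57 ± 0.61 on the log2 scale in Δ/+ (SE; adjusted p = 1.03e-07) and 9.95 ± 0.61 for Δ/DN cells (adjusted p = 8.40e-08). Here and below, each SE was worked back from the difference and its F statistic. Per kilobase of transcript, Il6 ranked seventh of the 10 genes without LPS and first with LPS, at 1204 CPM per kb in Δ/+ and 761 CPM per kb in Δ/DN by the deposited gene length.

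Lif, a cytokine known for its action on stem cells and on the uterus, stayed at low levels. It read 1.88, 1.26, 0.805 and 1.28 CPM in Δ/+ US, 16.3, 9.33 and 12.7 CPM in Δ/+ LPS, 0.825, 1.08, 0.741 and 0.548 CPM in Δ/DN US, and 7.61, 14.7, 6.04 and 6.33 CPM in Δ/DN LPS. The highest library was Δ/+ LPS 1, and every LPS library was above every US library. The LPS difference was 3.16 ± 0.32 on the log2 scale in Δ/+ and 3.42 ± 0.30 in Δ/DN (adjusted p = 1.41e-06 and 5.24e-07).

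Osm, a cytokine made mainly by blood cells, had the highest level per kilobase of the 3 IL-6 family ligands before LPS. It read 29.1, 29.5, 28.7 and 30.9 CPM in Δ/+ US and 16.7, 15.3, 25.9 and 17.5 CPM in Δ/DN US. With LPS it read 89.1, 90.8 and 115 CPM in Δ/+ and 68.9, 59.4, 62.3 and 49.3 CPM in Δ/DN. Every Δ/DN library lay below every Δ/+ library of the same treatment, the nearest being Δ/DN US 3. The LPS difference was 1.76 ± 0.16 on the log2 scale in Δ/+ and 1.68 ± 0.15 in Δ/DN (adjusted p = 6.18e-07 and 5.63e-07), the smallest among the 6 ligands.

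Csf1, the gene of M-CSF, rose in both genotypes. Its US libraries read 50.3, 48.2, 61.2 and 43.3 CPM in Δ/+ and 35.1, 46.7, 79.2 and 60.5 CPM in Δ/DN. Its LPS libraries read 378, 351 and 380 CPM in Δ/+ and 344, 320, 407 and 340 CPM in Δ/DN. The genotypes overlapped in both treatments, and Δ/DN culture 3 was the highest Δ/DN culture in each. The LPS difference was 2.92 ± 0.20 on the log2 scale in Δ/+ and 2.70 ± 0.19 in Δ/DN (adjusted p = 3.90e-08 and 5.35e-08).

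Csf2 was near the detection floor without LPS. Its read counts were 2, 0, 0 and 0 in Δ/+ US and 0, 2, 0 and 1 in Δ/DN US, against 384, 179 and 371 reads in Δ/+ LPS and 80, 71, 138 and 40 reads in Δ/DN LPS. The LPS levels were 5.24, 2.89 and 4.86 CPM in Δ/+ and 1.33, 1.05, 1.94 and 0.473 CPM in Δ/DN, so that each Δ/DN LPS library was below each Δ/+ LPS library. Pooled over libraries and scaled for depth, the LPS level was 714 times the US level in Δ/+ (exact 95% interval 197 to 5903) and 136 times in Δ/DN (46.2 to 664). These intervals cover counting error only, and in 12 of the 15 libraries more genes had 2 reads than had 1 or 3, so they may be too narrow. Both LPS effects were called (adjusted p = 4.67e-07 and 3.24e-06). Csf2 overlaps an antisense gene, Gm12223, in GENCODE M21, and whether counting used strand is not given in the sources used here.

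Csf3 was likewise close to the floor without LPS, at 2, 5, 2 and 12 reads in Δ/+ US and 3, 10, 4 and 0 reads in Δ/DN US. With LPS it read 18.9, 17.2 and 14.4 CPM in Δ/+ and 6.32, 7.81, 8.49 and 12.6 CPM in Δ/DN. The highest Δ/DN LPS library, culture 4, came near the lowest Δ/+ one, and the groups did not overlap. The pooled LPS level was 259 times the US level in Δ/+ (169 to 419) and 189 times in Δ/DN (118 to 325), with the same limits on these intervals. Both effects were called (adjusted p = 3.88e-08 and 6.94e-08).

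**Figure D1:**
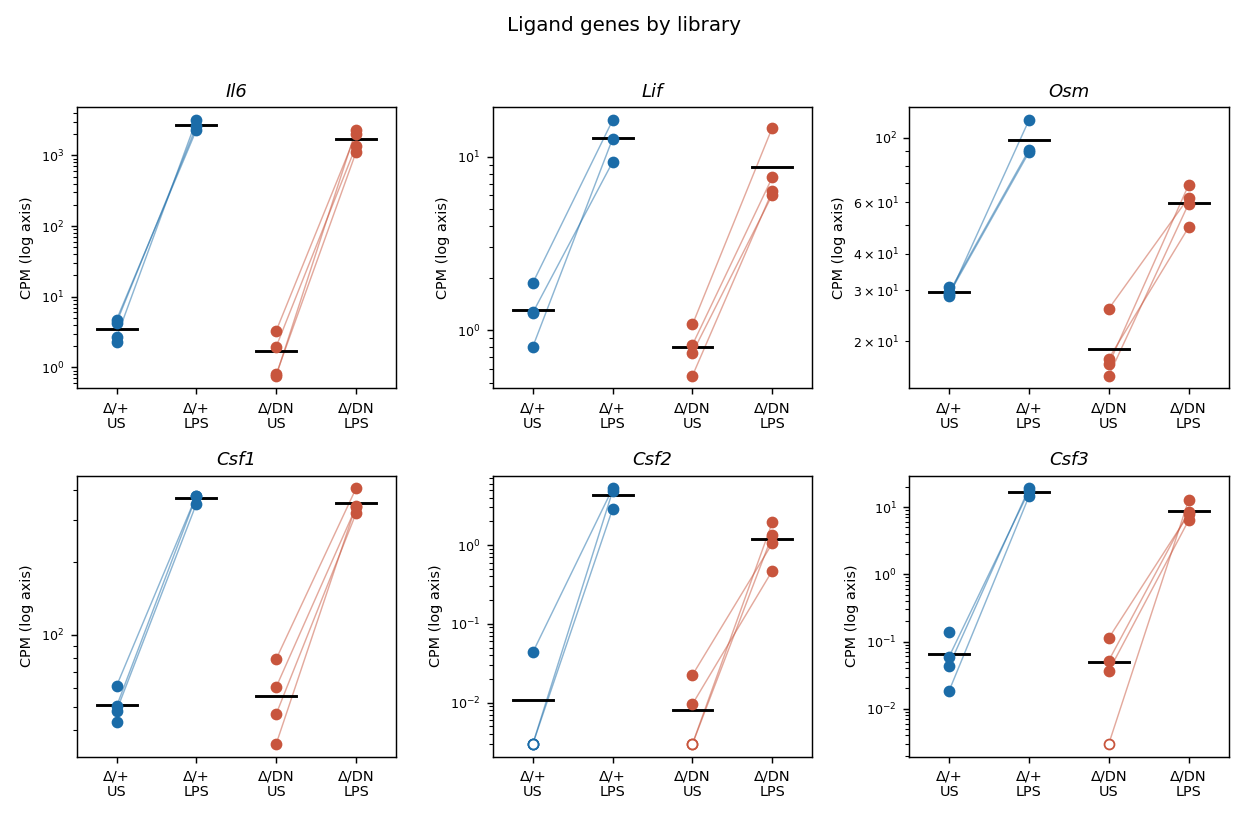
Levels of the 6 ligand genes in CPM on log axes by group, where points are libraries, lines join those of one culture, bars are group means and open points stand for 0 reads drawn at a fixed low value. All LPS points lie above all US points of the same genotype, and with LPS the Δ/DN points of Osm, Csf2 and Csf3 lie below the Δ/+ points.

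Among the receptors, the chains for GM-CSF were abundant in every library and moved little. Csf2ra, the ligand-specific alpha chain, read 228, 209, 245 and 207 CPM in Δ/+ US, 236, 225 and 293 CPM in Δ/+ LPS, 237, 184, 258 and 214 CPM in Δ/DN US, and 318, 266, 300 and 230 CPM in Δ/DN LPS. The 4 groups overlapped. Its LPS difference was 0.17 ± 0.14 on the log2 scale in Δ/+ and 0.32 ± 0.13 in Δ/DN (adjusted p = 0.368 and 0.0594). All 4 Δ/DN cultures were higher with LPS, and in the fit with a replicate block for culture the Δ/DN value was 0.32 with an adjusted p of 0.00889. That call was made in 12 of 20 alternative fits, among them those without Δ/DN US 3 (0.42, adjusted p = 0.0127) or Δ/DN LPS 4 (0.41, adjusted p = 0.0194).

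Csf2rb, the shared beta chain, read 2622, 2361, 2184 and 2702 CPM in Δ/+ US, 2380, 2178 and 2535 CPM in Δ/+ LPS, 2142, 2088, 2326 and 2086 CPM in Δ/DN US, and 2436, 2661, 2295 and 2506 CPM in Δ/DN LPS. The LPS difference had a 95% interval of -0.30 to 0.20 on the log2 scale in Δ/+ and -0.03 to 0.42 in Δ/DN, and neither was called (adjusted p = 0.760 and 0.145). The Δ/DN effect was called by DESeq2 (adjusted p = 0.0263) and without Δ/DN culture 3 (adjusted p = 0.0439), and not in the other 18 alternatives.

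Csf2rb2, the IL-3 beta chain, read 1386, 1324, 1085 and 1444 CPM in Δ/+ US, 1231, 1167 and 1203 CPM in Δ/+ LPS, 1012, 1025, 1071 and 884 CPM in Δ/DN US, and 1086, 1263, 1087 and 1081 CPM in Δ/DN LPS. Its LPS difference had a 95% interval of -0.39 to 0.13 in Δ/+ and -0.06 to 0.42 in Δ/DN, with no call (adjusted p = 0.424 and 0.203), although the 4 Δ/DN LPS libraries all lay above the Δ/DN US libraries. Csf2rb and Csf2rb2 are near-identical neighbours in part: 7.15% and 10.6% of their 75-base stretches occur in the other gene, so reads may have been split between them and both values are uncertain.

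Csf1r, the M-CSF receptor, was lower with LPS in every culture. It read 764, 805, 831 and 655 CPM in Δ/+ US and 360, 370 and 373 CPM in Δ/+ LPS. In Δ/DN it read 711, 712, 789 and 656 CPM without LPS and 406, 431, 365 and 433 CPM with it. US and LPS libraries did not overlap, while the genotypes did in both treatments. Csf1r fell by 1.08 ± 0.11 on the log2 scale in Δ/+ and by 0.81 ± 0.10 in Δ/DN (adjusted p = 1.42e-06 and 7.68e-06). The gene overlaps Hmgxb3 on the other strand, so reads of the 2 genes may not be separated.

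**Figure D2:**
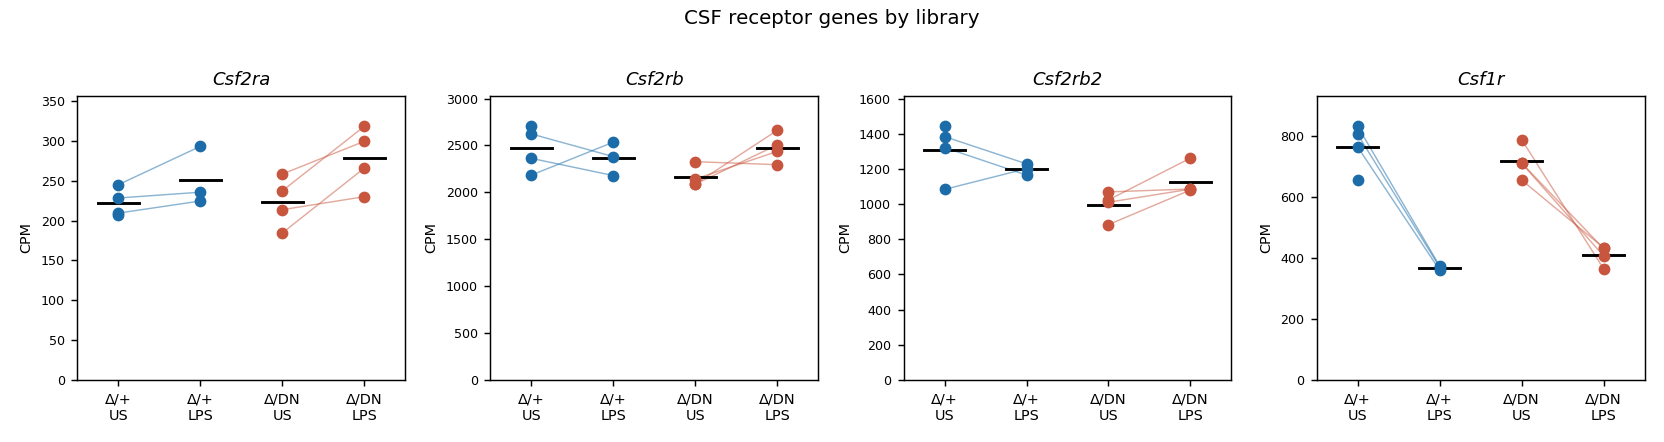
Levels of the 4 CSF receptor genes in CPM by group on axes that start at 0, where points are libraries, lines join libraries of a culture and bars are group means. Csf1r sits between 655 and 831 CPM without LPS and between 360 and 433 CPM with LPS, while the groups of the other 3 genes lie close together.

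Per kilobase, Csf2rb, Csf2rb2 and Csf1r held the first 3 ranks before LPS in both genotypes. Csf2rb ranked first in both US groups, at 257 CPM per kb in Δ/+ and 225 in Δ/DN by the deposited length, and Csf2 ranked last. With LPS only Il6 stood above Csf2rb, which read 246 and 257 CPM per kb. In both US groups Csf1r ranked above Csf2rb2 by the deposited length and below it by GENCODE M21 exon lengths. The other ranks named in this paragraph were the same with both lengths. Some further ranks depend on the length used, since the deposited length of Csf2ra is 30.5 times its GENCODE exon length.

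Between genotypes without LPS, Osm and Csf2rb2 were lower in Δ/DN and the other 8 genes were not called. These 2 of 10 genes stand beside 10.5% of all genes tested. The median log2 difference of the 10 genes was -0.30, that of the 9 genes other than Csf2 was -0.39, and that of all genes tested was 0.01. Osm and Csf2rb2 were also the 2 of 10 genes whose Δ/DN and Δ/+ libraries did not overlap, as held for 12.5% of all genes. Osm fell by 0.68 ± 0.15 on the log2 scale (adjusted p = 0.0162), a 1.61-fold lower level, with a 95% interval of -1.01 to -0.36. Within library set 2 the Osm difference was -0.88 (adjusted p = 0.00430). Its call held in 17 of 19 alternatives and was lost without Δ/+ US 4 (adjusted p = 0.0854) or Δ/DN US 2 (adjusted p = 0.0792).

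Csf2rb2 fell by 0.39 ± 0.11 (adjusted p = 0.0410), with a 95% interval of -0.63 to -0.15. The call held in 10 of 19 alternatives, and in 2 of the 8 fits that left out 1 library, those without Δ/+ US 3 or Δ/DN US 3. Without another US library the adjusted p was 0.0876 (Δ/+ 1), 0.0995 (Δ/+ 2), 0.245 (Δ/+ 4), 0.0871 (Δ/DN 1), 0.113 (Δ/DN 2) or 0.111 (Δ/DN 4). Within library set 2 the difference was -0.33 (adjusted p = 0.135). Csf2rb, with which it may share reads, differed by -0.20 ± 0.11 (adjusted p = 0.262).

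Il6 differed by -1.003 ± 0.47 on the log2 scale without LPS (adjusted p = 0.199), and its genotypes overlapped through Δ/DN US 3, at 3.30 CPM. Without Δ/DN US 3 the difference was -1.54 (adjusted p = 0.0151), and without both libraries of that culture it was -1.52 (adjusted p = 0.00984). That library was also the Δ/DN US library with the high sum of LPS-response genes, and the part of this in the Il6 value was not tested. Lif differed by -0.60 ± 0.30 (adjusted p = 0.217). For Csf1 the 95% interval ran from -0.38 to 0.41, for Csf2ra from -0.27 to 0.30 and for Csf1r from -0.28 to 0.15. Csf3 differed by -0.48 ± 0.72 (adjusted p = 0.730), and its low counts left a wide 95% interval, from -2.02 to 1.06. Csf2 was at or under the floor of 3 reads in all 8 libraries, so no fold is given.

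With LPS, Osm was lower in Δ/DN and the other 9 genes were not called. This 1 of 10 stands beside 8.60% of all genes tested. The median log2 difference of the 10 genes was -0.28, against 0.01 over all genes tested. Il6, Osm, Csf2 and Csf3 were 4 of 10 genes whose groups did not overlap, with Δ/DN lower in each, and 24.6% of all genes did not overlap. Osm fell by 0.76 ± 0.17 on the log2 scale (adjusted p = 0.0181), a 1.70-fold lower level, with a 95% interval of -1.12 to -0.40. Within library set 2 it was -0.62 (adjusted p = 0.0132). The call held in 16 of 18 alternatives and was lost without Δ/+ LPS 2 (adjusted p = 0.0713) or Δ/DN LPS 2 (adjusted p = 0.0675).

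Csf2 differed by -1.78 ± 0.60 on the log2 scale with LPS (adjusted p = 0.0773), a 3.44-fold lower level in Δ/DN with a 95% interval of -3.07 to -0.50. It missed the threshold and was called in 8 of 18 alternatives. These included DESeq2 (adjusted p = 0.0190), voom with a replicate block for culture (-1.83, adjusted p = 0.0203) and library set 2 alone (-1.86, adjusted p = 0.0308). Of the fits that left out 1 library, only the one without Δ/DN LPS 3 called it (adjusted p = 0.0314). Csf3 differed by -1.20 ± 0.41 (adjusted p = 0.0825), a 2.30-fold lower level with a 95% interval of -2.08 to -0.32. It was called in 5 of 18 alternatives, among them DESeq2 (adjusted p = 0.00472), voom with a replicate block (-1.30, adjusted p = 0.00703) and the fit without Δ/DN culture 4 (-1.31, adjusted p = 0.0160), and in none of the 7 fits that left out 1 library.

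Il6 differed by -0.62 ± 0.48 with LPS (adjusted p = 0.464) and was called in none of 18 alternatives. Its 95% interval ran from -1.67 to 0.42. The lowest Δ/+ LPS library, at 2299 CPM, and the highest Δ/DN LPS library, at 2298 CPM, were next to each other. The intervals of the other 6 genes all held 0: that of Lif ran from -1.003 to 0.31, of Csf1 from -0.64 to 0.22, of Csf2ra from -0.16 to 0.49, of Csf2rb from -0.22 to 0.31, of Csf2rb2 from -0.36 to 0.19 and of Csf1r from -0.04 to 0.44.

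**Figure D3:**
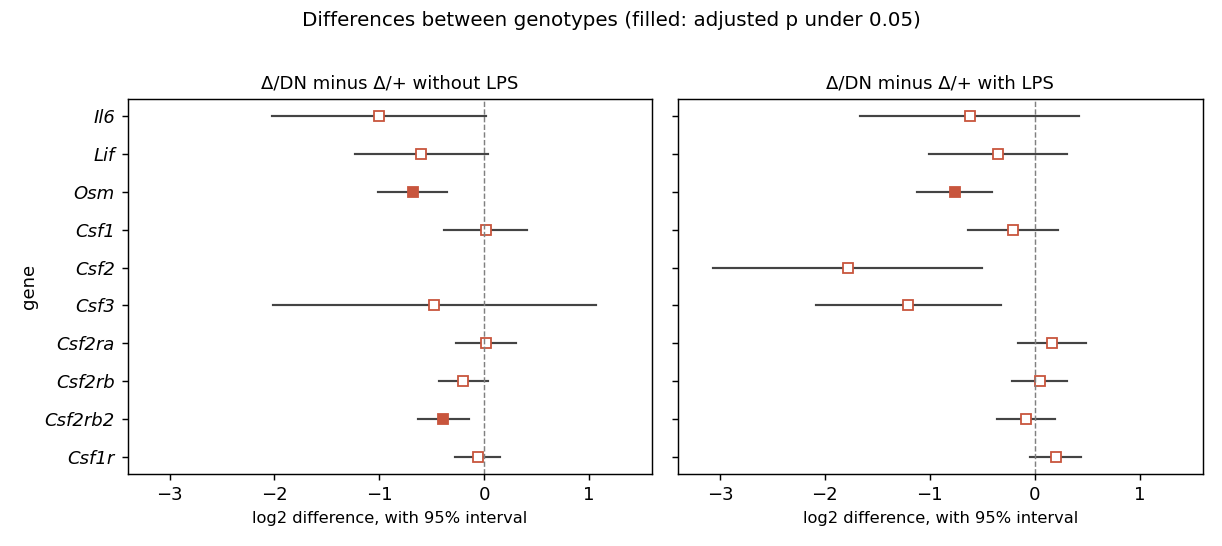
Log2 differences between genotypes (Δ/DN minus Δ/+) of the 10 genes without and with LPS, with 95% intervals as lines, and filled squares where the adjusted p was under 0.05. Osm is filled in both panels and Csf2rb2 only without LPS, and Csf2 without LPS is left out because its libraries held 0 to 2 reads.

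Whether LPS moved a gene by a different amount in the 2 genotypes was tested as an interaction. None of the 10 genes was called by edgeR, where 0.00479% of all genes tested were, and 0 of the 10 had an unadjusted p under 0.05. DESeq2 and voom with a replicate block also called 0 of them. The estimates were 0.38 ± 0.63 on the log2 scale for Il6, 0.25 ± 0.42 for Lif, -0.08 ± 0.22 for Osm, -0.22 ± 0.26 for Csf1, -0.73 ± 0.84 for Csf3, 0.15 ± 0.19 for Csf2ra, 0.25 ± 0.16 for Csf2rb, 0.31 ± 0.16 for Csf2rb2 and 0.26 ± 0.14 for Csf1r. The fitted value for Csf2 was -2.15 ± 1.75, and it ranged from -4.53 to -1.29 when 1 library was left out. It rests on 0 to 2 reads a library without LPS and depends on the prior count of the fit. The 95% interval for Osm ran from -0.54 to 0.38 and that for Il6 from -0.98 to 1.75. So Osm was lower in Δ/DN in both treatments, and its rise with LPS was not shown to differ. These comparisons share libraries, and their values are not separate pieces of evidence.

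The receptors of the IL-6 family were then read beside their ligands, from a list of 10 other receptor subunits of which 9 passed the filter. In Δ/DN without LPS, Il6ra and Il6st fell and Csf3r rose, 3 of 9, where 10.5% of all genes tested were called. DESeq2 called 5 of the 9. Il6ra, the IL-6-binding chain, read 63.0, 76.4, 57.1 and 99.9 CPM in Δ/+ US and 45.7, 41.5, 48.4 and 52.6 CPM in Δ/DN US. It fell by 0.72 on the log2 scale (adjusted p = 0.0110), and the groups did not overlap. Il6st, the shared gp130 chain, read 177, 203, 157 and 289 CPM in Δ/+ US and 130, 145, 129 and 117 CPM in Δ/DN US, and fell by 0.69 (adjusted p = 0.0228). Both calls were lost without Δ/+ US 4, the highest library of each gene and the only Δ/+ library of set 3. That of Il6st was also lost without Δ/+ US 2, without Δ/DN US 4 and within library set 2 (-0.40, adjusted p = 0.173). The median log2 difference of the 9 genes was 0.36, against 0.01 over all genes tested.

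The receptor chains for IL-6 and LIF were lower with LPS in both genotypes. Il6ra fell by 2.69 on the log2 scale in Δ/+ and by 2.25 in Δ/DN, to 9.95 to 11.7 CPM and 7.92 to 13.2 CPM. Il6st fell by 1.23 and 1.01, and Lifr, the LIF receptor chain, by 2.33 and 3.10 (adjusted p at most 0.00391 for these 6 values). Il3ra, the alpha chain for IL-3, rose by 1.31 and 0.89 (adjusted p = 7.91e-05 and 0.00107). Il5ra, the alpha chain for IL-5, rose by 3.59 and 1.80 (adjusted p = 0.00361 and 0.0427), and the call in Δ/DN held in 12 of 19 alternatives. In all, 4 of 9 rose and 4 fell in Δ/+, and 3 rose and 3 fell in Δ/DN, where 47.7% and 48.2% of all genes were called. The medians of -0.43 and -0.31 stand beside -0.08 and -0.09 over all genes. Between genotypes with LPS, 1 of 9 was higher in Δ/DN (Csf3r) and 1 lower (Osmr), where 8.60% of all genes were called. The median was then 0.03, against 0.01 over all genes.

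Osmr, the oncostatin M receptor chain, had 0 to 14 reads in each US library. With LPS it read 1.69, 4.35 and 1.54 CPM in Δ/+ and 0.300, 0.237, 0.239 and 0.0827 CPM in Δ/DN. Δ/+ LPS 2 was the highest library, and the genotypes did not overlap. Osmr was lower in Δ/DN with LPS by 3.48 on the log2 scale (adjusted p = 0.0358). It rose with LPS in Δ/+ (4.95, adjusted p = 0.000398) and was not called in Δ/DN (1.46, adjusted p = 0.203), but the difference between those effects was not called either (adjusted p = 0.415). The genotype call was lost without any of 5 of the 7 LPS libraries, those being Δ/+ 1 and 2 and Δ/DN 1, 2 and 4.

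Beside these Osmr and Osm values, the summed level of 12 stromal and endothelial markers was lower in Δ/DN. It ran from 35.5 to 53.6 CPM in Δ/+ US, 16.5 to 27.7 CPM in Δ/DN US, 130 to 169 CPM in Δ/+ LPS and 54.5 to 98.3 CPM in Δ/DN LPS. Of the 12, Lepr and Pecam1 fell and Col1a2 rose in Δ/DN without LPS, and Lepr fell with LPS, where 10.5% and 8.60% of all genes were called. All 12 had reads in some library, and Lum had none in any US library. The part of these markers in the Osm and Osmr values was not tested.

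Csf3r, the G-CSF receptor, was higher in Δ/DN. It read 4.95, 3.95, 4.49 and 5.74 CPM in Δ/+ US, 7.91, 10.9, 9.14 and 20.7 CPM in Δ/DN US, 13.0, 14.7 and 14.9 CPM in Δ/+ LPS, and 24.4, 36.3, 29.1 and 45.7 CPM in Δ/DN LPS. Culture 4 was the highest Δ/DN culture in both treatments. Csf3r rose in Δ/DN by 1.21 on the log2 scale without LPS (adjusted p = 0.0111) and by 1.02 with LPS (adjusted p = 0.0348), and with LPS by 1.70 in Δ/+ and 1.50 in Δ/DN. The genotype call was lost without Δ/+ US 4 or Δ/DN US 2 in the first case, and in 5 of 7 fits that left out 1 library in the second. So in Δ/DN with LPS the Csf3 ligand gene had a lower mean and its receptor gene a higher one, and only the receptor passed the test.

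Csf3r is a neutrophil gene, and the sum over 14 neutrophil markers, itself included, ran from 138 to 226 CPM in Δ/+ US, 185 to 1140 in Δ/DN US, 118 to 167 in Δ/+ LPS and 186 to 1280 in Δ/DN LPS. The highest values, 1140 and 1280 CPM, were those of culture 4. Csf3r was the 1 of the 14 markers called between genotypes by edgeR in each treatment, where 10.5% and 8.60% of all genes were called. The median log2 difference of the 14 was 1.05 without LPS and 1.03 with LPS, against 0.01 over all genes. DESeq2 called 2 and 3 of them, and 3 and 4 had an unadjusted p under 0.05 in edgeR. Every one of the 14 had reads, with Ly6g averaging 0.818 and 0.990 CPM in Δ/+ US and Δ/DN US. The part of neutrophils in the Csf3r values was not tested. Macrophage markers, which bear on Csf1r, summed to 1510 to 1716 CPM in Δ/+ US and 1966 to 2215 CPM in Δ/DN US, with 4 of 13 higher in Δ/DN (C1qa, C1qb, C1qc and Gpnmb) and 2 lower (Cd68 and Marco), and Vsig4 had no read. With LPS they summed to 1989 to 2008 CPM in Δ/+ and 2034 to 2745 CPM in Δ/DN, where C1qa and Gpnmb were higher and Cd68 and Marco lower. Over all genes 10.5% were called without LPS and 8.60% with LPS. The part of the macrophage markers in the Csf1r values was not tested.

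T and NK cell markers, of cells that can make Csf2 and Osm, summed to 0.617 to 1.64 CPM in Δ/+ US and 1.07 to 2.10 CPM in Δ/DN US. With LPS they summed to 2.95 to 4.01 CPM in Δ/+ and 2.95 to 5.24 CPM in Δ/DN, above every US library. The Csf2 level with LPS was 2.89 to 5.24 CPM in Δ/+ and 0.473 to 1.94 CPM in Δ/DN. The median log2 difference of the tested markers between genotypes was 0.66 without LPS and 0.68 with LPS, against 0.01 over all genes. Of the 11 markers 6 passed the filter, Gzmb and Lck rose with LPS in both genotypes and Klrb1c fell in Δ/DN, and Trac had no read. Over all genes 47.7% were called with LPS in Δ/+ and 48.2% in Δ/DN. None of the 6 was called between genotypes by edgeR, with 2 at an unadjusted p under 0.05 in each treatment, while DESeq2 called 0 and voom with a replicate block 1 in each. Mast cell and basophil markers, of cells that carry IL-3 and GM-CSF receptors, summed to 22.5 to 25.7 CPM in Δ/+ US, 24.8 to 54.0 in Δ/DN US, 19.9 to 25.9 in Δ/+ LPS and 33.8 to 60.7 in Δ/DN LPS. Of 7 tested, Cd200r3 was higher in Δ/DN without LPS and Cd200r3 and Gata2 with LPS, where 10.5% and 8.60% of all genes were called. The median log2 difference of the 7 was 1.31 without LPS and 1.46 with LPS, against 0.01 over all genes. Mcpt4 had no read. The part of these cells in the Csf2, Osm and receptor values was not tested.

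**Figure D4:**
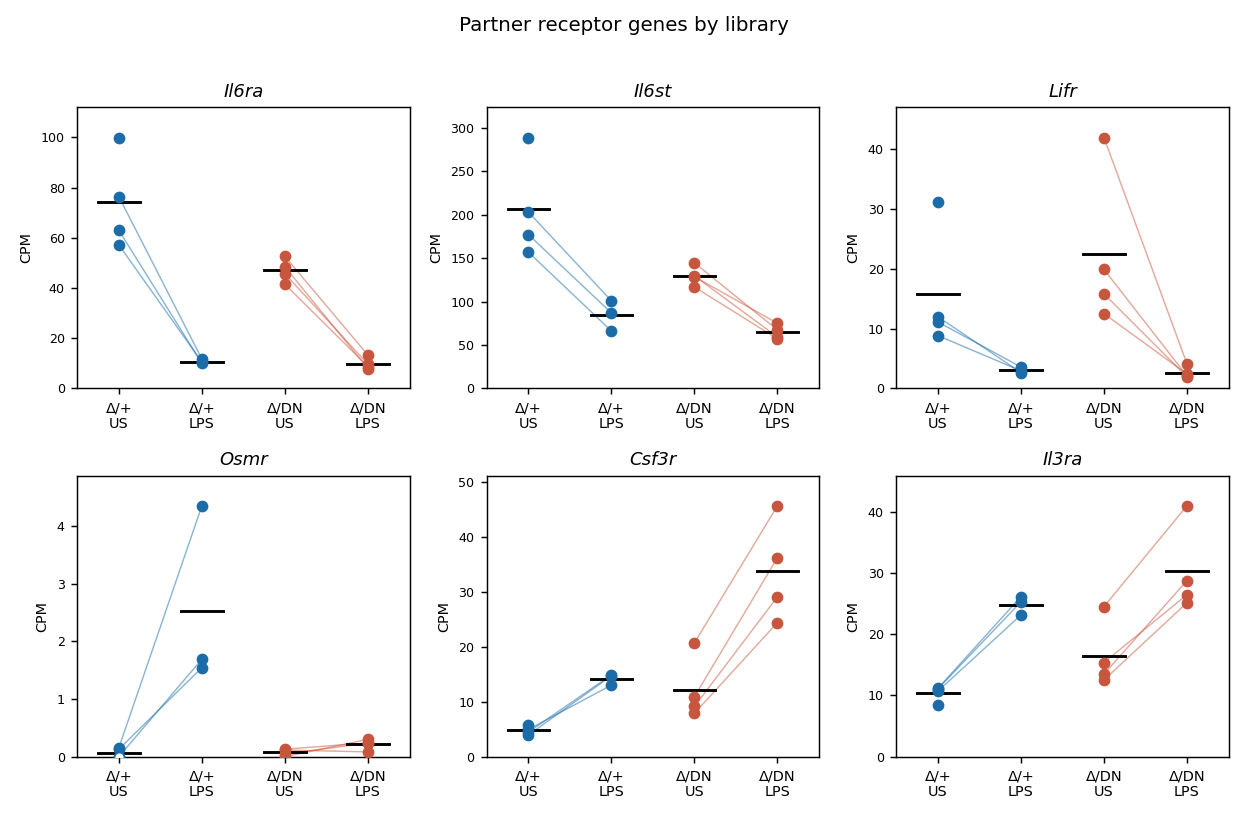
Levels of 6 partner receptor genes in CPM by group on axes that start at 0, with points for libraries, lines for cultures and bars for group means. Il6ra, Il6st and Lifr are low with LPS in both genotypes, Osmr is above 1.5 CPM only in the 3 Δ/+ LPS libraries, and Csf3r is higher in Δ/DN than in Δ/+ in each treatment.

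Other ligands of the same receptors were mostly silent. Of 10, 5 passed the filter, and Clcf1, Il27 and Ebi3 rose with LPS in both genotypes, where 47.7% and 48.2% of all genes were called. Clcf1, a cardiotrophin-like cytokine, averaged 3.63 and 3.18 CPM in Δ/+ US and Δ/DN US and 25.7 and 17.3 CPM with LPS. Il27, a subunit of IL-27, went from 0.361 and 0.902 CPM to 103 and 95.02 CPM, and its partner Ebi3 from 13.6 and 16.1 CPM to 63.6 and 79.5 CPM. None of the 5 was called between genotypes by edgeR, with 1 at an unadjusted p under 0.05 in each treatment, and DESeq2 called 1 without LPS and 0 with it. In the interaction edgeR called 0 of the 5, with 1 at an unadjusted p under 0.05, where it called 0.00479% of all genes. DESeq2 called 1 in the interaction and voom with a replicate block 0. Il3 had no read in any of the 15 libraries, and Il34, the second ligand of CSF1R, had at most 6 reads in a library.

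Downstream of these receptors, 16 of 20 JAK-STAT and feedback genes rose with LPS in each genotype, and Cbl, a ubiquitin ligase gene, fell in Δ/+. Of all genes tested 47.7% and 48.2% were called in either direction. The median log2 difference of the list was 1.22 in Δ/+ and 1.29 in Δ/DN, beside -0.08 and -0.09 over all genes. Stat5a and Stat5b, the transcription factors used by the GM-CSF receptor, rose by 3.04 and 1.49 in Δ/+ and by 2.64 and 1.45 in Δ/DN, and the kinase gene Jak2 by 2.19 and 1.63. Between genotypes, Tyk2, a kinase of gp130 receptors, and Ptpn6, the phosphatase SHP-1, were higher in Δ/DN without LPS (0.36 and 0.79, adjusted p = 0.0408 and 0.0468) and with LPS (0.45 and 1.10, adjusted p = 0.0328 and 0.0256). With LPS Cbl was also higher in Δ/DN (0.60, adjusted p = 0.0314) and Jak1, the main kinase of gp130, lower (-0.44, adjusted p = 0.0403). These counts of 2 and 4 of 20 stand beside 10.5% and 8.60% of all genes, so the first is near the share over all genes. DESeq2 called 5 and 6. The counts each went to 0 when any 1 of several libraries was left out (Δ/+ US 1, 2 or 4 and Δ/DN US 2 or 4 without LPS, and Δ/+ LPS 1 or 2 and Δ/DN LPS 2 with LPS), to 4 without Δ/DN US 3 and to 5 without Δ/DN LPS 3. The first was 5 in the voom fit with a replicate block. Medians between genotypes were -0.01 and -0.09, against 0.01 over all genes.

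Regulators of Il6 and CSF gene transcription and mRNA decay, 22 genes, moved in the same way with LPS: 16 rose and 4 fell in Δ/+, and 17 rose and 2 fell in Δ/DN (Zfp36l2 and Jun, which fell in both), with medians of 1.05 and 1.28, beside -0.08 and -0.09 over all genes, of which 47.7% and 48.2% were called. Nfkbiz, an NF-kB cofactor needed for Il6 induction, rose by 4.68 and 5.13. Zc3h12a, which encodes the RNase Regnase-1 that degrades Il6 mRNA, rose by 2.71 and 2.79. Without LPS 8 of 22 fell in Δ/DN and none rose, where 10.5% of all genes were called, and the median was -0.33 against 0.01 over all genes. DESeq2 called 9. The 4 with the smallest p were Fosl1 (-2.18) and Jun (-0.53), which encode AP-1 subunits, Ets2 (-0.93) and Rc3h1 (-0.41), which encodes the mRNA-decay factor Roquin-1. Leaving out 1 library gave between 2 calls (without Δ/+ US 4 or Δ/DN US 2) and 16 calls (without Δ/DN US 3), while the calls of Fosl1 and Ets2 held in all 8 such fits. With LPS 2 of 22 were called, beside 8.60% of all genes, and 4 by DESeq2. Zfp36l1 was higher in Δ/DN (1.27, adjusted p = 0.00513) and Zfp36 lower (-0.59, adjusted p = 0.0430), and both encode proteins that bind AU-rich mRNA. The first call held in all 7 fits that left out 1 library and the second in 3, being lost without Δ/+ LPS 1, 2 or 3 or Δ/DN LPS 2.

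Genes tied to Csf1r, 11 in all, split with LPS into 3 that rose (Irf8, Adam17 and Rhbdf2) and 6 that fell in each genotype, with medians of -0.81 and -0.42. Over all genes 47.7% and 48.2% were called and the medians were -0.08 and -0.09. Cebpa and Runx1, transcription factors that act on the Csf1r gene in myeloid cells, fell by 2.68 and 1.30 in Δ/+ and by 2.39 and 1.19 in Δ/DN. Rhbdf2, which encodes a partner of the protease that sheds CSF1R from the cell surface, rose by 1.84 and 1.83. The part of these genes in the fall of Csf1r was not tested. Between genotypes Runx1 (-0.39) and Adam10 (-0.38) were lower in Δ/DN without LPS, 2 of 11 beside 10.5% of all genes and 3 of 11 by DESeq2, and edgeR called 0 of 11 with LPS, where 5 had an unadjusted p under 0.05, DESeq2 called 1 and the fit without Δ/DN LPS 3 called 2. The first count went to 0 without Δ/+ US 4 or Δ/DN US 2 and to 4 without Δ/DN US 3.

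Over the 15 libraries, the genes whose log2 CPM followed Il6 most closely were Il1a, Ptgs2 and Cxcl2, with Pearson r of 0.997, 0.996 and 0.996. These values are descriptions over libraries that include the step from US to LPS. After group means were subtracted, Ptgs2 was the nearest, at 0.933. Trim26 was nearest to Csf1 (0.996, and 0.900 within groups), Ell2 to Osm (0.990), Pde4b to Lif (0.978) and Anp32b-ps1 to Csf1r (0.986). For Csf2 and Csf3 the nearest were A630072M18Rik (0.986) and Gm36117 (0.991). Csf2ra was nearest to Clcn6 (0.901) and Csf2rb2 to Gssos2 (0.872). Csf2rb was nearest to Csf2rb2, at 0.782 over the libraries and 0.788 within groups, and these 2 genes may share reads.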

How the data were processed

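RNA was measured in 15 libraries. The authors deposited raw read counts per gene, which were used as deposited, and a gene length, used only for levels per kilobase. The submitters' processing notes name, with no settings, HISAT2 2.2.1, Trimmomatic 0.33, FastQC, bedtools, featureCounts and edgeR, and the mouse builds GRCm39 and mm39. The reference annotation and promoters are of GRCm38, so no coordinates are tied to the counts.

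Counts were tested with edgeR 4.0.16 (limma 3.58.1, R 4.3.3): TMM normalisation, filterByExpr with a minimum count of 10, a robust quasi-likelihood fit of 4 groups plus library set over all 15 libraries, and Benjamini-Hochberg adjustment over 20865 genes. Adjusted p-values come from edgeR where no other tool is given. Levels are CPM after TMM. CPM for likeness used log2 with a prior count of 2. The test was also run on simulated counts of independent libraries, with changes placed only in genes of higher counts. That run does not bear on genes near the floor or on the pairing of libraries by culture. Between-library comparison found no pair that agreed within sampling noise (chi-square per gene at least 30.1 within groups).

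The members and gene lists were chosen with earlier results of these data known. All 10 genes were named in each comparison. From each other list, up to 4 called genes with the smallest p were named in each comparison, plus receptor and ligand partners. Marker genes and members of small counts outside this rule (Cbl, Jun, Zfp36l2, Irf8 and Adam17 with LPS) were named after their values were seen. The marker lists covered dendritic cells, macrophages, neutrophils, mast cells and basophils, T and NK cells, and stromal and endothelial cells. Library names tie each LPS library to its US library. Their deviations from group means correlated at r of 0.06 to 0.43 over the 7 pairs, and fits with culture as a block were alternatives, as were DESeq2 1.42.0, other filters and scalings, and fits without libraries or cultures.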

Additional observations from a re-analysis of the deposited data

Results flagged for a closer look

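Among the 30 groups of 4 libraries checked over the 10 genes, 2 had a library far from the rest of its group, where chance gives about 1 in 20. Csf2rb2 in Δ/DN LPS 2 was at 1263 CPM, and the gap to the next of its group took up 0.968 of the group's range, above Dixon's limit for 4 values. The Csf2 level in Δ/+ US 1 was 0.0436 CPM, or 2 reads, while the other 3 libraries of its group had 0 reads, which is within the floor of 3 reads.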

How the results depend on the processing

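The 10 genes were refitted under 27 alternatives, each used where it bears on a comparison, and the LPS calls of the 6 ligands and of Csf1r held in all of those that gave a value. These alternatives share libraries, so counts of calls over them are not separate pieces of evidence. The fit without Δ/DN cultures 3 and 4 nearly repeats library set 2 alone. For Csf2 between genotypes with LPS these gave -1.87 and -1.86. Of the 10 genes, 2 were called between genotypes without LPS, and 1 within library set 2, without Δ/DN culture 4 and without Δ/DN cultures 3 and 4, and 3 without Δ/DN culture 3 (Il6 being added), with 0 to 3 when 1 library was left out. With LPS 1 was called, and 2 with no library set term or without culture 3, and 3 within library set 2, by DESeq2, in the voom fit with culture as a random replicate block, without culture 4 and without cultures 3 and 4, with 0 to 2 when 1 library was left out. The replicate block ended no call of the 10 genes and made those of Csf2 and Csf3 between genotypes with LPS and of Csf2ra with LPS in Δ/DN.

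No value that was called changed sign. Among uncalled differences between genotypes without LPS, Csf1 became -0.40 on the log2 scale within library set 2, -0.14 without culture 3, -0.00660 without culture 4 and -0.40 without both, and ranged from -0.23 to 0.21 when 1 library was left out. Csf3 became 0.94 within set 2, 0.0728 without culture 4 and 0.94 without both (-1.48 to 0.20 with 1 library left out). Csf2ra became -0.13 within set 2, -0.0730 without culture 3 and -0.13 without both (-0.0780 to 0.13). Csf2, on 0 to 2 reads a library, ranged from -0.56 to 2.70. Csf2rb ranged from -0.0209 to 0.0965 between genotypes with LPS and from -0.10 to 0.00603 between LPS and US in Δ/+. The difference between the LPS effects became 0.27 for Osm within set 2, 0.13 without culture 3 and 0.25 without both, and 0.24 for Csf1 within set 2 and 0.23 without both. With 1 library left out it ranged from -0.20 to 0.14 for Osm, -0.10 to 0.49 for Lif and -1.37 to 0.16 for Csf3. The cause of these changes was not tested. Depth limits Csf2, Csf3 and Osmr without LPS, where 3 reads stand for 0.0278 to 0.0655 CPM.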
